A study of Mus musculus with 6 samples.

Results

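Immediate early genes are transcribed within minutes of a stimulus, from transcription factors that are already present in the resting cell, and their mRNAs are short-lived. Several of them encode the Fos and Jun proteins, leucine zipper factors that bind DNA in pairs as AP-1, and others encode zinc finger factors or inhibitors that shut the response off. In the liver they are known for their induction after partial hepatectomy, during the acute phase response, and in hepatocytes under stress. The 10 genes described here, Fos, Fosb, Jun, Junb, Egr1, Atf3, Ier2, Ier3, Myc and Dusp1, were chosen by name among the 55385 genes of the deposited count table. All 10 were found in GENCODE M21, each with a single identifier, and all 10 had enough counts to be tested among 14454 genes.

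Livers came from male mice, wild-type C57BL/6 per the study's methods, that were 6 to 8 weeks old when high-fat feeding began and were fed this diet for 10 weeks. The mice then had a vertical sleeve gastrectomy (VSG, removal of most of the stomach) or a sham operation, and high-fat feeding went on for 12 weeks. Both groups therefore shared the diet and an operation, and no lean or unoperated livers were compared here. Each group held 3 libraries, named sham replicates 1 to 3 and VSG replicates 4 to 6, each from a different mouse per the study's methods. The feeding state and the time of day at liver collection were not given in the sources used here. The comparison asks how the levels of these genes differed 12 weeks after VSG from those after the sham operation.

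Library totals ran from 22804397 to 24191778 counts. Values are given as raw counts, as CPM (the count relative to the library total, scaled with TMM factors that correct for composition) or, between genes, as FPKM (CPM relative to exon length). Albumin (Alb) stood between 35829 and 81833 CPM in the 6 libraries. The summed level of 12 neutrophil and neutrophil precursor markers ran from 2.92 to 15.3 CPM in sham and from 156 to 1895 CPM in VSG libraries, and all 12 were higher after VSG at an adjusted p under 0.05. The sum of 8 macrophage markers ran from 345 to 730 CPM in sham and from 742 to 2165 CPM in VSG libraries, and 4 of the 8 were higher. In both groups the libraries had the same order by either sum, with sham replicate 2 lowest among the sham and VSG replicate 5 lowest among the VSG libraries. Stellate cell markers summed to between 594 and 893 CPM in sham and to between 283 and 552 CPM after VSG. All 7 had a negative log2 fold change, and only 1 (Reln) was lower at an adjusted p under 0.05. The sums of hepatocyte, endothelial, bile duct and lymphocyte markers overlapped between the groups. Alb made up most of the hepatocyte and Spp1 most of the bile duct sum, and single markers within them differed, with Fga 5.15-fold (adjusted p 0.00914) and Sox9 3.42-fold (adjusted p 0.0359) higher after VSG. These are pieces of whole liver, so a different number of cells of a type and a different amount of RNA per cell cannot be told apart.

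Of the 10 genes, Jun fell and Junb rose after VSG, and the other 8 did not pass the test. These 2 called genes are 20% of the 10, where 14.7% of all genes tested were called (6.79% higher and 7.87% lower after VSG), so the share of called genes was near the background. The split by direction moved with the scaling: with total counts in place of TMM factors, 486 of all genes were higher and 1512 lower, against 981 and 1137, and the calls among the 10 were 0 higher and 2 lower (Jun and Dusp1). The median log2 fold change of the 10 genes was -0.42, against 0.03 for all genes tested, with 4 positive and 6 negative values. The sham and VSG libraries did not overlap for Jun, Junb and Dusp1, while they did not overlap for 39.7% of all genes tested. With DESeq2, the tool of the study's methods, 5 of the 10 genes passed (Jun, Junb, Dusp1, Atf3 and Ier3), where 18.7% of all genes did. Adjusted p-values are from edgeR's quasi-likelihood test with Benjamini-Hochberg adjustment over all genes unless another tool is named.

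**Figure D1:**
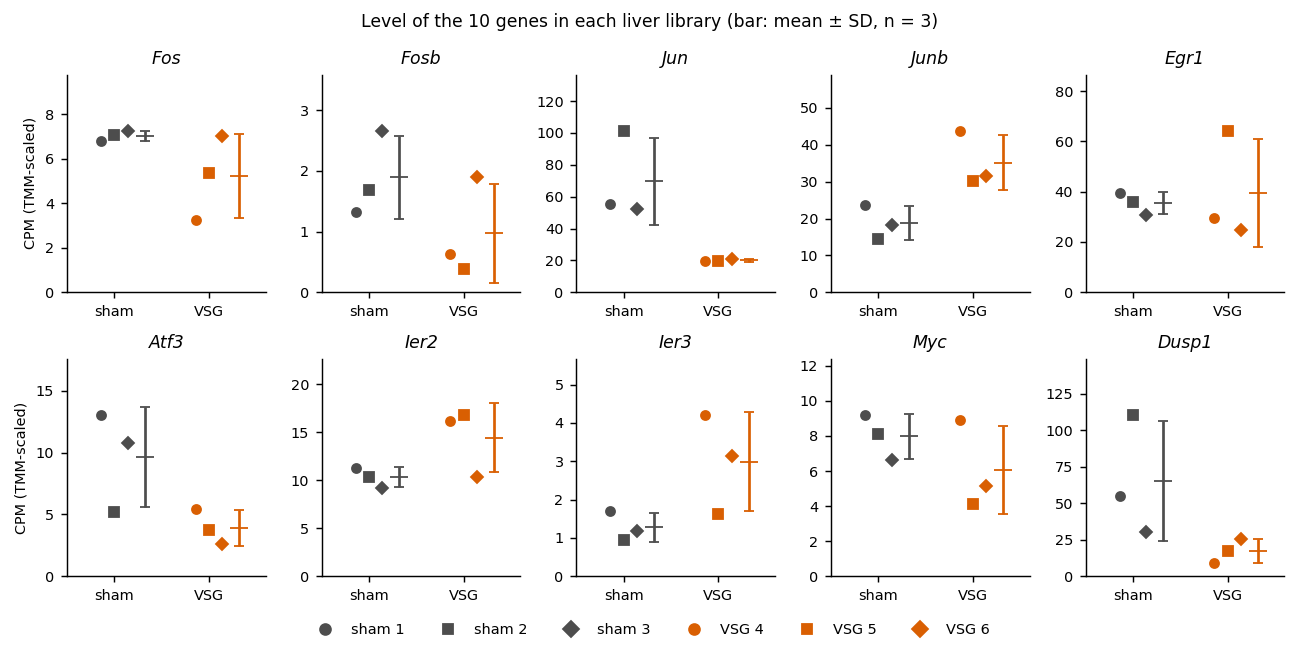
Level of each of the 10 genes in CPM (vertical axes, from 0) in the 3 sham (grey) and 3 VSG (orange) libraries, 1 symbol per library, with mean ± SD beside the points. The VSG libraries lie below all sham libraries for Jun and Dusp1 and above them for Junb, while the groups overlap in the other 7 panels.

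In sham livers the order of the genes by length-scaled level was led by Jun at 21.8 ± 8.62 FPKM (SD, n = 3) and Dusp1 at 19.7 ± 12.4 FPKM. Junb (8.14 ± 1.99), Egr1 (7.88 ± 0.973) and Ier2 (6.76 ± 0.680 FPKM) came next. Junb overlapped both of its neighbours over the libraries, while Egr1 was above Ier2 in every sham library. Atf3 followed at 4.49 ± 1.88 FPKM, then Fos at 2.99 ± 0.0990 and Myc at 2.94 ± 0.478 FPKM, which also could not be told apart. Ier3 at 1.13 ± 0.336 FPKM and Fosb at 0.303 ± 0.110 FPKM were lowest. In VSG livers Junb had the highest mean at 15.3 ± 3.23 FPKM, then Ier2 at 9.47 ± 2.36 and Egr1 at 8.79 ± 4.80 FPKM. Jun stood at 6.26 ± 0.250 FPKM and Dusp1 at 5.22 ± 2.42 FPKM, and the remaining 5 genes were below 3 FPKM in their means. Ier2 was above Jun in every VSG library. The libraries of Egr1 overlapped those of Junb, Ier2, Jun and Dusp1. VSG replicate 5 (14.3 FPKM) stood apart from the others (6.54 and 5.53 FPKM), and in that library Egr1 was above Junb (13.2 FPKM).

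Jun encodes the founding Jun protein, which pairs with Fos proteins or with itself and is activated by the JNK kinases. The gene (ENSMUSG00000052684.4) spans chr4:95049034-95052222 (GRCm38, minus strand) and is made of 1 exon of 3189 bases. Sham replicates 1 to 3 had counts of 1496, 2216 and 1374, against 430, 458 and 438 for VSG replicates 4 to 6. On the CPM scale Jun stood at 55.2, 101 and 52.2 in sham and at 19.5, 19.6 and 20.9 in VSG libraries. The VSG libraries were almost alike, the sham libraries were spread by replicate 2, and the highest VSG library was well under the lowest sham library. Jun was 3.48-fold lower after VSG (log2 fold change -1.80, SE 0.263, adjusted p 0.0127, edgeR). Leaving out sham replicate 2, the highest library, gave a log2 fold change of -1.43 (adjusted p 0.00747). Sham replicate 2 also had the highest hepatocyte marker sum (98918 CPM) and the lowest neutrophil and macrophage sums, and their part in the result was not tested. The call was lost in 1 of 14 alternatives, without VSG replicate 6 (log2 fold change -1.83, adjusted p 0.0638). The antisense gene Junos shares 232 exon bases with Jun and had 97 counts in the 6 libraries together.

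Junb encodes a second Jun protein, which binds the same sites and is known as a weaker activator that can oppose Jun. The gene (ENSMUSG00000052837.6) spans chr8:84974484-84978718 (minus strand), with 2301 exon bases. Its sham counts were 638, 316 and 478, and its VSG counts 967, 709 and 661. This corresponds to 23.6, 14.4 and 18.2 CPM in sham against 43.8, 30.3 and 31.5 CPM in VSG libraries. All VSG libraries were above all sham libraries, and VSG replicate 4 was the highest. Junb was 1.88-fold higher after VSG (log2 fold change 0.91, SE 0.220, adjusted p 0.0393, edgeR). The log2 fold change stayed positive in all 14 alternatives (0.72 to 1.10), and 9 of them kept the call. When 1 library was left out, the adjusted p missed the threshold without replicates 2, 3, 4 or 6 (0.0941, 0.145, 0.0816 and 0.0963). It also did so with total counts in place of TMM scaling (log2 fold change 0.75, adjusted p 0.110). Junb had the same order of libraries within each group as the macrophage and neutrophil marker sums given above, as did 10.6% of all genes tested. The part of these cells in the Junb result was not tested. Junb shares 173 exon bases with Prdx2 on the other strand, and Prdx2, at 71.2 ± 8.45 CPM under sham against 49.7 ± 4.17 CPM under VSG, was lower after VSG (adjusted p 0.0352), the direction opposite to that of Junb.

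The shares of Jun family transcripts were computed after these values had been seen, and nothing rests on a test of them. An exact two-sided permutation test of 3 against 3 libraries cannot give a p under 0.1, and it gave 0.1 for the shares of Jun and Junb and for their ratio and 0.7 for the share of Jund. Because a ratio of 2 genes in the same library does not depend on library scaling, Jun was divided by Junb on the FPKM scale. The ratio was 1.69, 5.06 and 2.07 in sham and 0.321, 0.466 and 0.478 in VSG libraries. Jun was the more abundant transcript in every sham library and Junb in every VSG library. Jun made up 36.9% ± 8.79 of the summed FPKM of Jun, Junb and Jund in sham and 15.3% ± 1.26 in VSG livers, and Junb 14.4% ± 4.54 and 37.0% ± 5.35. Jund, the third member, which is expressed in resting cells, held 48.7% ± 4.38 and 47.7% ± 4.12. The summed FPKM of the 3 genes was 58.1 ± 10.2 in sham and 41.1 ± 2.66 in VSG livers.

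**Figure D2:**
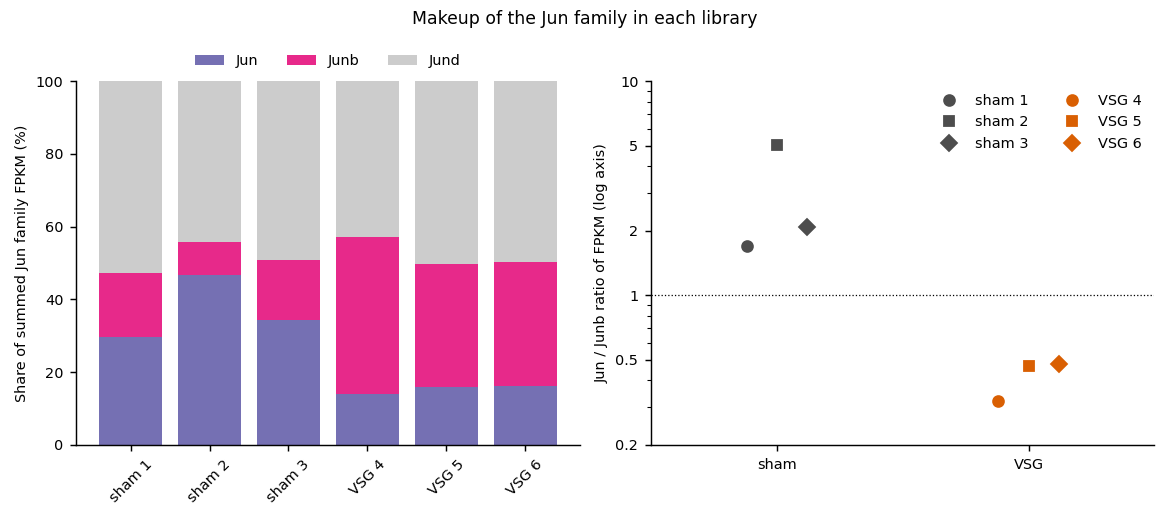
Left, share of Jun, Junb and Jund in their summed FPKM (vertical axis, percent) in each of the 6 libraries. Right, ratio of Jun to Junb FPKM per library on a log axis, with the dotted line at equal levels: the 3 sham libraries lie between 1.69 and 5.06 and the 3 VSG libraries between 0.321 and 0.478.

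Fos (chr12:85473890-85477273, plus strand), the main partner of Jun in AP-1, was expressed at a low level in both groups. The sham libraries held 184, 155 and 191 Fos counts and the VSG libraries 72, 126 and 147, which gave 6.80, 7.08 and 7.26 CPM against 3.26, 5.39 and 7.01 CPM. The sham libraries were nearly equal, and VSG replicate 6 reached the sham range while VSG replicate 4 was at the low end. The log2 fold change of -0.43 (SE 0.271, 95% interval -1.08 to 0.21) did not pass the threshold (adjusted p 0.296, edgeR), nor did it in any of 14 alternatives. Fosb (chr7:19302696-19310051, minus strand), a Fos paralog, was counted 36, 37 and 70 times in sham against 14, 9 and 40 times in VSG libraries. Its log2 fold change of -0.96 had a 95% interval from -2.39 to 0.46 (adjusted p 0.292, edgeR), an interval that holds both 0 and the value found for Jun. Without VSG replicate 6, the highest VSG library, it was -1.89 (adjusted p 0.0918). In contrast to both, Fosl2, which encodes Fra-2 and was one of the genes listed for comparison, rose from 20.8 ± 0.928 to 29.6 ± 3.35 CPM (log2 fold change 0.51, adjusted p 0.0311). Its call was lost with total counts (adjusted p 0.164) and without replicate 1, 2, 3, 4 or 6. Fosl1 had too few counts to be among the 14454 genes tested. Fos held 53.9% ± 1.55 of the summed Fos family FPKM in sham and 40.1% ± 10.3 in VSG livers, and Fosl2 38.7% ± 2.11 and 57.1% ± 11.2, again computed after the values were seen (exact permutation p 0.1 for both).

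Dusp1 (chr17:26505590-26562128, minus strand) encodes a phosphatase that removes the activating phosphates from the JNK, p38 and ERK kinases and is itself induced by stress and by glucocorticoids. It had the largest log2 fold change in size of the 10 genes and did not pass the test. This rank was lost without sham replicate 2 and without VSG replicate 4. Its counts ran 1496, 2415 and 791 over the sham libraries and 202, 409 and 528 over the VSG libraries. In CPM it stood at 55.2, 110 and 30.1 in sham against 9.14, 17.5 and 25.2 in VSG libraries. The lowest sham library and the highest VSG library were close, and both groups spread over more than a doubling. The log2 fold change was -1.92 (SE 0.541, 95% interval -3.20 to -0.63, adjusted p 0.0593, edgeR). Without sham replicate 2, which was highest for Dusp1 as it was for Jun, the log2 fold change was -1.31 (adjusted p 0.132). An adjusted p under 0.05 was reached with DESeq2 (0.00196), with no filter beyond 1 count (0.0197) and with total counts (0.0294). Dusp1 shares 11 exon bases with Ergic1 on the other strand, whose difference had the same sign (86.8 CPM in sham against 61.4 CPM after VSG, log2 fold change -0.50, adjusted p 0.0520) with groups that did not overlap.

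Atf3 (chr1:191170296-191218039, minus strand), a stress-induced factor of the ATF/CREB family that also pairs with Jun proteins, was at 13.0, 5.16 and 10.8 CPM in sham and at 5.48, 3.72 and 2.58 CPM in VSG libraries. Here sham replicate 2 was the lowest sham library, under VSG replicate 4, so the groups overlapped. The log2 fold change was -1.30 (SE 0.405, adjusted p 0.0745, edgeR). It passed with DESeq2 (0.0125), with no filter beyond 1 count (0.0346) and without sham replicate 2 (0.0490). Egr1 on chromosome 18, a zinc finger factor that responds to serum and growth factors, was at 39.3, 36.0 and 30.7 CPM in sham and at 29.3, 64.1 and 24.8 CPM in VSG libraries. VSG replicate 5 alone was above the sham range, and the other VSG libraries were below it. The log2 fold change of Egr1 was 0.16 (95% interval -0.68 to 0.99, adjusted p 0.772, edgeR), and it turned to -0.41 without VSG replicate 5.

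Myc (chr15:61985391-61990374, plus strand) pairs with Max and drives growth and ribosome production. Its level was 9.20, 8.13 and 6.61 CPM in sham and 8.91, 4.10 and 5.15 CPM in VSG libraries (log2 fold change -0.40, 95% interval -1.12 to 0.32, adjusted p 0.384, edgeR). The groups overlapped through VSG replicate 4. Ier2 (chr8:84661331-84662854, minus strand), which encodes a nuclear protein induced by growth factors, was at 11.3, 10.4 and 9.23 CPM in sham and at 16.2, 16.8 and 10.3 CPM in VSG libraries (log2 fold change 0.49, 95% interval -0.0011 to 0.98, adjusted p 0.148, edgeR). VSG replicates 4 and 5 were above the sham libraries and VSG replicate 6 was within their range. Ier3 (chr17:35821684-35822923, plus strand), whose product is induced by stress and inflammatory signals and affects cell survival, was counted only 46, 21 and 31 times in sham against 93, 38 and 66 times in VSG libraries. That is 1.70, 0.959 and 1.18 CPM in sham against 4.21, 1.62 and 3.15 CPM in VSG libraries, and VSG replicate 5 fell within the sham range. The log2 fold change of Ier3 was 1.22 (SE 0.404, adjusted p 0.0880, edgeR). The adjusted p was 0.0440 with DESeq2 and 0.0278 without VSG replicate 5. Ier3 shared with Junb the order of libraries of the macrophage and neutrophil sums in both groups, and the part of these cells was not tested.

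**Figure D3:**
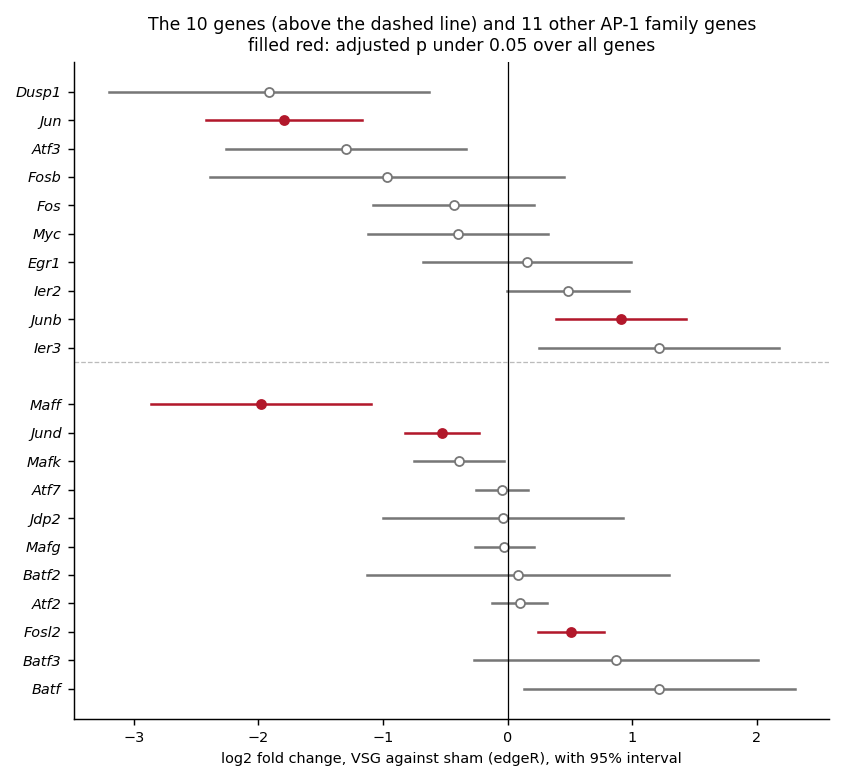
Log2 fold change of VSG against sham (horizontal axis) with its 95% interval for the 10 genes and, under the dashed line, for the 11 tested of 12 other AP-1 family genes. Filled red points passed an adjusted p of 0.05 over all genes: Jun and Junb among the 10, and Maff, Jund and Fosl2 among the others.

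The libraries did not rank alike from gene to gene. Sham replicate 2 was the highest sham library for Jun and Dusp1 and the lowest for Junb, Atf3 and Ier3. Within the VSG group, Fos, Jun and Dusp1 were all highest in replicate 6 and lowest in replicate 4. By the mean of the centred log2 levels of the 10 genes, sham libraries stood between 0.11 and 0.32 and VSG libraries between -0.32 and -0.14. The genes whose log2 level followed this mean most closely, among 9957 genes with at least 5 CPM on average, were Dynlt3, Ptpra, Adss, Sec22a, Nhp2 and Arhgap18. Their likeness, described by Pearson's r over 6 libraries of which 3 were sham and 3 VSG, was between 0.991 and 0.997, and the points shared the group difference. These are the highest of 9957 values of r, and the mean pooled genes with positive and with negative log2 fold changes.

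RefSeq promoter sequence (GRCm38.p6, the assembly of mm10) was given for 7 of the 10 genes and not used here for Egr1, Ier2 and Myc. The 250 bases before the start of Jun and Junb are shown because these genes passed the test in opposite directions. Those of Dusp1 are shown because it had the largest difference in size before any library was left out. Those of Fos are shown because it is the partner gene that did not pass. Each is written in the direction of transcription, 5′ to 3′, and ends at the base before the start. Capitals mark matches on either strand to TGACNTCA, the 8-base form of the cyclic AMP response element and of its variant in Jun, or to TGACG, its leading 5 bases. Starts are those of RefSeq, which are the outermost starts of GENCODE M21 for Fos and Jun but not for Fosb, Junb, Atf3, Ier3 and Dusp1, and the Atf3 and Dusp1 windows lie far inside the annotated gene. The windows are chr4:95052223-95052472 (minus strand), chr8:84978749-84978998 (minus strand), chr17:26508473-26508722 (minus strand) and chr12:85473640-85473889 (plus strand).
Jun: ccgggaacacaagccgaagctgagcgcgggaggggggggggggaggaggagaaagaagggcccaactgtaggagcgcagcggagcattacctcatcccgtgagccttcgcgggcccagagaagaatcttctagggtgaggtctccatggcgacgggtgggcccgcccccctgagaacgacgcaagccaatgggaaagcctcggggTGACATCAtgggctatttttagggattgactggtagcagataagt
Junb: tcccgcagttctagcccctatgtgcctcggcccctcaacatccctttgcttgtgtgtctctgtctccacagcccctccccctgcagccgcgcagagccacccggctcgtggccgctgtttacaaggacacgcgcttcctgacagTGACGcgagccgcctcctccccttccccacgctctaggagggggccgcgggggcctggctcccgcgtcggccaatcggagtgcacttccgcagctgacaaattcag
Dusp1: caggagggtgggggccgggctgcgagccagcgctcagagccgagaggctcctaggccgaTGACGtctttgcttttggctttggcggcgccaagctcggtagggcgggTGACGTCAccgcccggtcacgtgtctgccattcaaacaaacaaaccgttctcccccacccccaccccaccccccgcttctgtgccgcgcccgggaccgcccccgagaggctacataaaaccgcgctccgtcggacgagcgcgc
Fos: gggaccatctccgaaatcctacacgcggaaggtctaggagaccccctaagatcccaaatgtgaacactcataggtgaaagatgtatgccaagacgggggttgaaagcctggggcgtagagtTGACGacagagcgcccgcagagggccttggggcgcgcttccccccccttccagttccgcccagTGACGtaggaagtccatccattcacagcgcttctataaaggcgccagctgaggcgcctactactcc

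TGACNTCA occurred in 2 of the 7 promoters, those of Jun (TGACATCA, 45 to 38 bases before the start) and Dusp1 (TGACGTCA, 143 to 136 bases before the start), and in 7.49% of the 32851 promoter windows of the same length. Before any library was left out, Jun and Dusp1 also had the most negative log2 fold changes of the 10 genes. Only that of Jun passed the test. This pairing was noticed after the values were seen, and the promoters of Egr1, Ier2 and Myc were not searched. A link between the motif and the fold change was not tested. TGACG, which lies within TGACGTCA and so was counted there too, occurred in 5 of 7 (Fos, Fosb, Junb, Atf3 and Dusp1) and in 17.8% of all windows. TGANTCA, the 7-base AP-1 site, occurred in 0 of 7 and in 6.75% of all windows. The CArG box, the site of serum response factor, occurred in 0 of 7 and in 1.47% of all windows. Sequence outside these windows was not searched. CCAAT, the site of NF-Y, occurred in 3 of 7 (Jun, Junb and Ier3; 33.8% of all), GCGNGGGCG, the site of Egr proteins, in Fosb (4.70%), CACGTG, the site of Myc and Max, in Dusp1 (6.02%) and TATAAA in Fos (12.4%). A match is a description of letters in this window and not a measured binding site.

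Of 12 other AP-1 family genes listed, 11 were tested, 1 was higher and 2 were lower after VSG, 8 did not pass, and their median log2 fold change was -0.03. Besides Fosl2, these were Maff and Jund. Maff, a small Maf protein without an activation domain, stood at 8.75, 18.5 and 11.7 CPM in the sham and at 1.99, 4.19 and 3.67 CPM in the VSG libraries. Its log2 fold change was -1.98 (SE 0.371, adjusted p 0.0217, edgeR), and sham replicate 2 was again highest. Jund was at 46.9 ± 6.83 CPM after the sham operation and fell to 32.6 ± 0.999 CPM after VSG (log2 fold change -0.53, adjusted p 0.0368, edgeR). The calls of Fosl2 and Jund held in 8 of 14 alternatives each and that of Maff in 11.

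Of 30 other immediate early genes, 28 were tested, 2 were higher and 3 lower after VSG, and the median log2 fold change was -0.34. Socs3, an inhibitor of cytokine receptor signalling, had the largest rise, from 8.90, 4.39 and 6.19 CPM in sham to 48.3, 25.9 and 31.7 CPM in VSG libraries (log2 fold change 2.44, SE 0.328, adjusted p 0.0104, edgeR). Nfkbiz, a nuclear regulator of NF-κB target genes, rose from 18.1, 12.1 and 14.1 CPM to 46.3, 24.9 and 39.8 CPM (log2 fold change 1.32, adjusted p 0.0236). Socs3 and Nfkbiz had the same order of libraries within each group as the neutrophil and macrophage sums, whose part was not tested. Klf10, a Krüppel-like repressor induced by TGF-β, fell from 39.8 ± 4.47 to 21.3 ± 3.77 CPM (log2 fold change -0.90, adjusted p 0.0181). The orphan nuclear receptor Nr4a3 fell from 1.58 ± 0.359 to 0.472 ± 0.172 CPM (log2 fold change -1.74, adjusted p 0.0265). The third lower gene was its relative Nr4a2 (log2 fold change -1.33, adjusted p 0.0475), whose call held in 5 of 14 alternatives. Both had few counts, with 9, 8 and 14 for Nr4a3 and 12, 12 and 13 for Nr4a2 in the VSG libraries. By contrast Nr4a1, the third of these receptors, was at 5.34 ± 1.09 CPM under sham against 5.71 ± 2.58 CPM under VSG (log2 fold change 0.10, adjusted p 0.859) and had the opposite sign with total counts (-0.049). Egr2 (log2 fold change -1.75, adjusted p 0.0832), Zfp36 (-0.78, 0.0664), Ccn1 (-0.74, 0.243) and Btg2 (0.08, 0.872) did not pass, and Btg2 too had the opposite sign with total counts (-0.075). Zfp36, which encodes a protein that destabilizes mRNAs with AU-rich elements, was at 93.7, 153 and 82.0 CPM in sham and at 62.8, 62.5 and 66.4 CPM in VSG libraries. Like Jun, it was highest in sham replicate 2 and nearly constant over the VSG libraries.

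Of 15 feedback inhibitors, all tested, 3 were lower after VSG and the others did not pass, with a median log2 fold change of -0.14. Most act on MAP kinase signalling, while Nab1 and Nab2 in this list are corepressors of Egr factors. Dusp6, a phosphatase specific for ERK, stood at 68.3, 73.9 and 79.2 CPM in the sham and at 25.8, 40.4 and 29.9 CPM in the VSG libraries, a gap wider than the spread of either group. Its log2 fold change was -1.20 (SE 0.173, adjusted p 0.0121, edgeR). Spry1, an inhibitor of growth factor receptor signalling, fell from 7.70 ± 0.800 to 3.82 ± 0.493 CPM (log2 fold change -1.01, adjusted p 0.0168), and the third was Dusp5 (log2 fold change -1.09, adjusted p 0.0319).

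Of 17 kinases and transcription factors upstream of these genes, all tested, 1 was higher and 2 were lower, with a median log2 fold change of 0.02. Creb1, a factor that binds the cyclic AMP response element, rose (log2 fold change 0.48, adjusted p 0.0269), a call held in 8 of 14 alternatives and lost with total counts (0.171). Mrtfb, a coactivator of serum response factor, fell from 61.1 ± 6.44 to 37.9 ± 2.62 CPM (log2 fold change -0.69, adjusted p 0.0156), and Mapk9, which encodes a JNK kinase, from 91.0 ± 6.80 to 66.6 ± 5.97 CPM (log2 fold change -0.45, adjusted p 0.0391). In the Myc and Max network, 11 of 12 genes were tested, 1 was higher and 1 lower, with a median of 0.10. Mga, a Max-binding factor, rose from 42.0 ± 4.26 to 63.2 ± 5.26 CPM (log2 fold change 0.59, adjusted p 0.0226, lost with total counts at 0.122 and without replicates 2, 3 or 6), and Mycl, a Myc paralog, fell from 9.91 ± 1.66 to 4.80 ± 0.350 CPM (log2 fold change -1.05, adjusted p 0.0157).

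Atf3 is also a target of the integrated stress response, so 9 genes of that response were set beside it. Of these, 2 were higher after VSG and the others did not pass, with a median log2 fold change of 0.52. Atf4, the central factor of the response, rose from 65.5, 60.7 and 57.6 CPM to 103.7, 77.4 and 82.4 CPM (log2 fold change 0.52, adjusted p 0.0463), a call that held in 5 of 14 alternatives and was lost with total counts, for example (0.177). Asns, the asparagine synthetase that Atf4 induces, rose from 3.62, 0.640 and 0.798 CPM in sham to 59.7, 56.4 and 33.3 CPM in VSG libraries (log2 fold change 4.85, SE 0.644, adjusted p 0.0101, edgeR). Without sham replicate 1, the highest sham library, the log2 fold change of Asns was 6.09. Of the 9 genes, 5 had a positive and 4 a negative log2 fold change, and each of the 4 turned positive in at least 1 alternative. Over the 6 lists together, 18 of 91 tested genes were called (7 higher, 11 lower), 19.8% against the 14.7% of all genes. The calls of Socs3, Klf10, Dusp6, Mrtfb and Mycl held in 12 of 14 alternatives, those of Nfkbiz and Spry1 in 11, those of Dusp5 and Mapk9 in 9, that of Asns in 13 and that of Nr4a3 in 8 of 13.

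**Figure D4:**
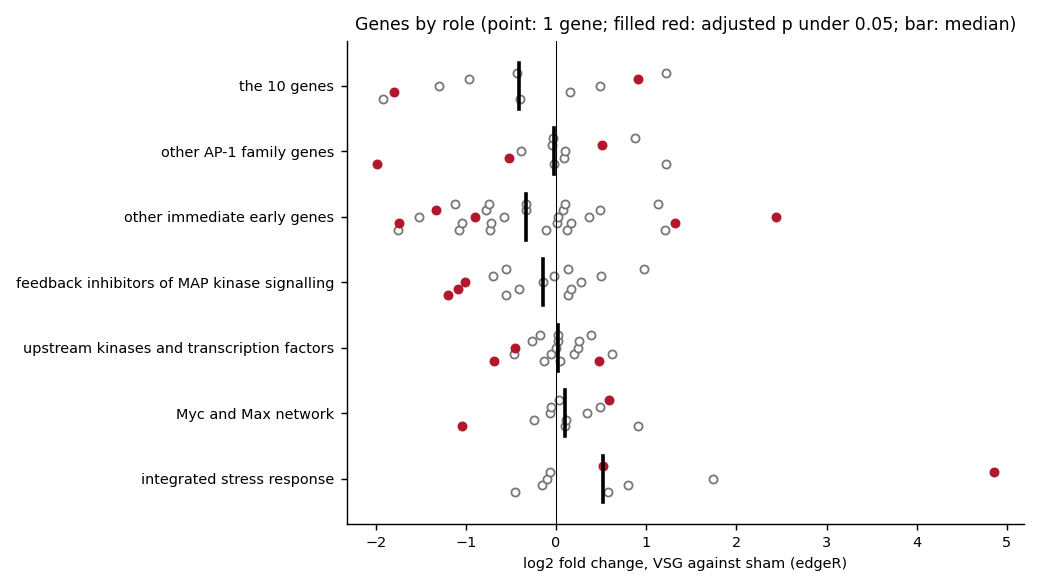
Log2 fold change of VSG against sham (horizontal axis) for the 10 genes and for 6 lists of related genes (rows), 1 point per tested gene, filled red where the adjusted p was under 0.05, with a black bar at the median of each row. The medians lie between -0.42 (the 10 genes) and 0.52 (integrated stress response), and each row except feedback inhibitors and integrated stress response holds called genes on both sides of 0.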

How the data were processed

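Poly(A)-selected liver RNA was sequenced from 3 sham and 3 VSG mice. The deposited table held raw counts for each gene. Per the labels, the authors checked reads with FastQC 0.10.1, aligned them with STAR 2.6.0 to mm10 and counted them with featureCounts 2.0.3 from strand-specific libraries. Which annotation and strand option were used, and how reads in overlapping genes were assigned, was not given in the sources used here, which leaves Junb, Jun and Dusp1 uncertain where exons overlap. The deposited table also held exon lengths, used only for FPKM.

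Identifiers were matched to GENCODE M21 without version (55144 of 55385). The version of Ier2 differed. The 14454 genes that met filterByExpr's limits (count 10, total 15) were scaled with TMM factors (0.897 to 1.15) and tested with edgeR 4.0.16 in R 4.3.3, with group as the only term. SE is the size of the log2 fold change over the square root of F. Replicates of a group differed by more than counting noise (chi-square per degree of freedom at least 25.2).

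The genes, the lists and the alternatives were chosen with earlier results of these data known. The alternatives were DESeq2 1.42.0, limma-voom and limma 3.58.1 on log2(FPKM + 1), RLE factors, total counts, other low-count filters, another prior count (2) and the omission of each library in turn. All 10 genes are described. Of each other list, up to 2 called genes per direction with the smallest adjusted p and Nr4a1, Egr2, Fosl2, Jund, Btg2, Zfp36, Socs3 and Ccn1 were named, with the 6 genes most like the mean of the 10. Nr4a2, Dusp5, Nab1, Nab2, Prdx2, Ergic1 and single cell markers were named after their values were seen. The fits were tested on simulated data.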

Additional observations from a re-analysis of the deposited data

How the results depend on the processing

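No paired analysis was possible because the sample numbers run from 1 to 3 in sham and from 4 to 6 in VSG libraries and are not shared. Total counts moved the median log2 fold change of all genes from 0.03 to -0.11, and the other settings kept it between -0.00499 and 0.04. With DESeq2, 3252 genes passed against 2118, with 5 of the 10 genes (Jun, Junb, Atf3, Ier3 and Dusp1) against 2, 9 other immediate early genes against 5 and 4 integrated stress genes against 2. Without a filter beyond 1 count 4 of the 10 passed, where 2306 of 27530 genes tested did. With total counts 1 gene passed in the Myc and Max network and 1 in the integrated stress response, where limma-voom and limma on log2(FPKM + 1) also called 1 each.

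Leaving out 1 library in turn gave from 159 (without sham replicate 3) to 2732 genes (without VSG replicate 5) and from 0 to 3 of the 10. It gave from 0 to 3 other AP-1 genes, 0 to 6 other immediate early genes, 0 to 4 feedback inhibitors, 0 to 3 upstream factors, 0 to 3 of the Myc and Max network and 0 to 3 integrated stress genes. The cause was not tested. Among the genes named by rule, signs turned for Egr1 (range -0.41 to 0.40 when 1 library was left out), Nr4a1 (-0.33 to 0.30, and -0.049 with total counts) and Btg2 (-0.15 to 0.35, with -0.075 from total counts and -0.0078 from limma-voom). No library exceeded 70 counts for Fosb or 93 for Ier3, which had the highest counting error of the 10 genes.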
